A study of Mus musculus with 7 samples.

Results

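The 9 genes described here are the 8 oocyte factors that were carried as transgenes in these cells, together with Sohlh2, the partner of one of them. They were chosen by name, and all 9 are among the 55364 genes of the expression table and among the 21780 genes tested. Nobox, Figla, Tbpl2 and Lhx8 were transgenes in both 4F- and 8F-mini-oocytes, Stat3, Dynll1, Sub1 and Sohlh1 were transgenes in 8F-mini-oocytes only, and Sohlh2 had no transgene. Mini-oocytes are oocyte-like cells made from female mESCs (mouse embryonic stem cells). RNA-seq was performed on 7 libraries, of which 2 were 4F-mini-oocytes at day 7, 3 were 4F-mini-oocytes at day 21 and 2 were 8F-mini-oocytes at day 21. Each day 7 sample was a pool of 1000 cells and each day 21 sample a pool of 10 cells, so day and pool size change together. Both lines came from the female mESC line BVSC H18 (strain hybrid 129/C57BL6), and the 8F line also carries an Npm2-mCherry reporter. In both lines each transgenic factor carries a domain that marks it for degradation unless the small molecule Shield1 is present. All groups received Shield1, stem cell factor (SCF) and the ROCK inhibitor Y-27632, and from day 12 the fresh medium had no Shield1. The labels do not say whether replicates were separate cultures, so the p-values measure only the spread between these samples, which may be technical.

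These factors act at the start of oocyte growth. Nobox (a homeodomain protein), Figla (a basic helix-loop-helix, or bHLH, protein), Lhx8 (a LIM homeodomain protein) and the bHLH pair Sohlh1 and Sohlh2 are transcription factors of the germ line whose loss in mice disrupts early follicles, and Tbpl2 is a paralog of the TATA-binding protein that takes its place at promoters in growing oocytes. Stat3 is the transcription factor downstream of LIF and related cytokines, Dynll1 is a light chain of the dynein motor that also binds many other proteins, and Sub1 is a coactivator that binds single-stranded DNA. Proteins of the bHLH family bind the E-box, written CANNTG, as dimers.

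The stretch before the start is shown for the bHLH pair Sohlh1 and Sohlh2. RNA of both genes was present at day 21 in 4F-mini-oocytes, which carry no transgene of either. The sequences are the 250 bases before the RefSeq start on GRCm38.p6, read along the gene's strand, with each E-box (CANNTG, whose reverse complement is again CANNTG) in capitals. The Sohlh1 stretch is chr2:25847249-25847498 on the minus strand and has 64.4% GC. The Sohlh2 stretch is chr3:55181794-55182043 on the plus strand and has 64.8% GC.
Sohlh1: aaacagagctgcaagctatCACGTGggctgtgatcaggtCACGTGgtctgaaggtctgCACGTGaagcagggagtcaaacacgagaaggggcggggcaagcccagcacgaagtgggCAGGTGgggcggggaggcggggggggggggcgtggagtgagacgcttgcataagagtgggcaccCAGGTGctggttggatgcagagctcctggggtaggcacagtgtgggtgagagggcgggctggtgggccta
Sohlh2: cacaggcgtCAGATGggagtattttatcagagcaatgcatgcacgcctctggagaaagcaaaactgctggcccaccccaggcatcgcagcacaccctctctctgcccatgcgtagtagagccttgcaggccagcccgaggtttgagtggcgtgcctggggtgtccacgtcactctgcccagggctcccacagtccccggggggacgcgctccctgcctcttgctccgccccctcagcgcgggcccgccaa
The Sohlh1 stretch held 5 E-boxes, 3 of them of the palindromic form CACGTG, and the Sohlh2 stretch held 1. The CACGTG matches of Sohlh1 began 231, 211 and 192 bases before the start. Of the 32851 stretches of this length in the RefSeq promoter table, 66.2% held an E-box, 1.15% held 5 or more, 6.02% held CACGTG and 0.0609% held 3 or more of it. All 9 genes matched the table, and Tbpl2 held 4 E-boxes, Nobox and Figla 2 each, Stat3 and Sub1 1 each, and Lhx8 and Dynll1 none. The match of Sub1 was also CACGTG. The homeodomain motif TAATTA, searched on both strands like the next ones, was found in none of the 9 stretches, against 4.84% of all stretches. Its variant TAATTG, the TATA box motif TATAAA and the Stat motif TTCNNNGAA were not found in the 9 either, against 7.17%, 12.4% and 7.02% of all. A match describes letters in this window and not a bound site, and the motifs were chosen after the sequences had been seen. The RefSeq start of Figla, Sub1, Lhx8, Dynll1 and Sohlh2 differs from the outermost start of the gene in GENCODE vM21. The windows of Figla and Sub1 lie inside the gene as annotated there.

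**Figure D1:**
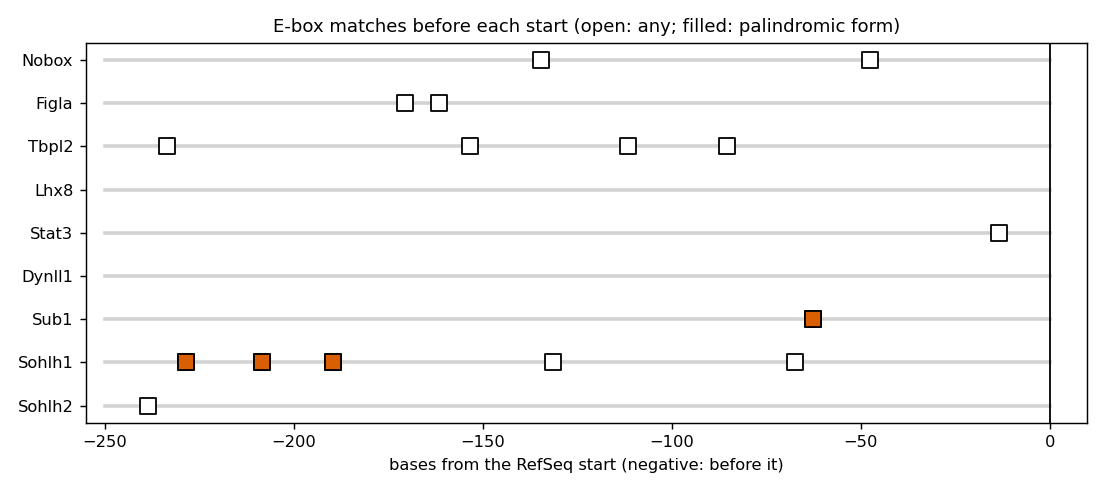
E-box matches in the 250 bases before the RefSeq start of each gene (x axis: bases from the start, negative before it; 1 row per gene). Open squares are CANNTG and filled squares are its form CACGTG, of which Sohlh1 held 3 and Sub1 1.

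The values are TPM, which are reads per base of exon scaled to a common total of transcripts in each library. Reads on genes, recovered from the steps of low TPM values, were between 9506135 and 12317535 at day 7 and between 14612696 and 18027834 at day 21, and 3 reads on 1 kb of exon were worth between 0.515 and 0.764 TPM. No molecular identifiers were counted, so several reads can stem from 1 molecule, and these limits hold for counting error only. A value sums reads of the native gene and of a transgene where there is one, since the table does not separate them. The share of exonic bases that is coding was 6.86% for Dynll1, 9.69% for Sub1 and 24.2% for Stat3, against 44.7% for Lhx8 and 69.6% to 83.1% for Figla, Tbpl2, Nobox and Sohlh1. Which exons the transgenes hold is not given in the sources used here. The summed TPM of 8 oocyte markers was between 11151 and 12747 at day 7, between 28655 and 31571 in 4F-mini-oocytes at day 21 and between 25844 and 26415 in 8F-mini-oocytes. That of 7 granulosa cell markers was at most 12.3 TPM in each library, with Inha at 0 in all 7 and Amhr2 at 0 in the 5 libraries of day 21. Of these markers, 3 averaged 1 TPM or more in 8F-mini-oocytes and 1 in each 4F group. Kitl averaged 9.03 TPM at day 7, and 3.09 (4F) and 3.04 TPM (8F) at day 21. Foxl2 averaged 2.09 TPM in 8F- against 0.240 TPM in 4F-mini-oocytes at day 21, and Cyp19a1 1.41 against 0.518 TPM. None of these 3 passed FDR 0.05 between the lines. The 4F and 8F libraries at day 21 also differ in how their values are written (up to 9 and 17 decimals), and this and the set of factors cannot be told apart. In these bulk samples, fewer cells that express a gene and less of its RNA per cell cannot be told apart.

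Nobox was the highest of the 9 genes in each of the 7 libraries, and Sohlh1 or Sohlh2 was the lowest. At day 7, the mean TPM ran in the order Nobox, Figla, Sub1, Lhx8, Dynll1, Tbpl2, Stat3, Sohlh2 and Sohlh1, and of these neighbours only Dynll1 and Tbpl2 overlapped. At day 21 the order in 4F-mini-oocytes was the same, with Dynll1 and Tbpl2, Tbpl2 and Stat3, and Sohlh2 and Sohlh1 overlapping. In 8F-mini-oocytes the order was Nobox, Sub1, Figla, Dynll1, Lhx8, Stat3, Sohlh1, Tbpl2 and Sohlh2, with overlap between Figla and Dynll1, Lhx8 and Stat3, and Sohlh1 and Tbpl2. Levels are compared between genes on the TPM scale, which is per exon length.

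**Figure D2:**
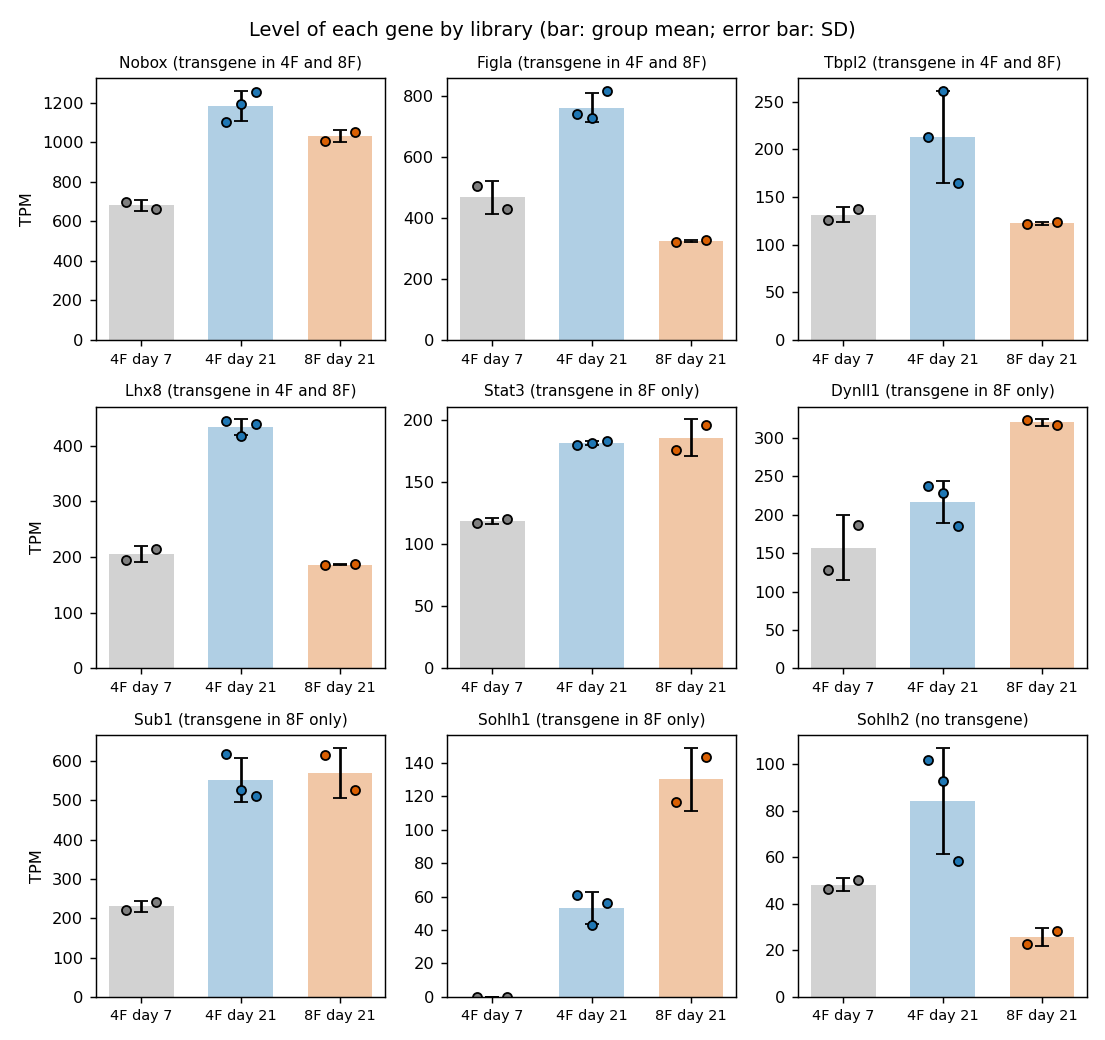
TPM of the 9 genes in each library (points), with the group mean (bar) and SD (error bar), for 4F-mini-oocytes at day 7 (n = 2) and day 21 (n = 3) and 8F-mini-oocytes at day 21 (n = 2). Figla, Lhx8 and Sohlh2 are lower in both 8F libraries than in every 4F library at day 21, and Sohlh1 is at 0 at day 7.

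The first comparison asks how the factors differ at day 21 between the 8F and the 4F line. Among the 4 factors with a transgene in both lines, Figla and Lhx8 were lower in 8F-mini-oocytes by more than 2-fold, while Nobox and Tbpl2 did not pass the test. Figla, on chromosome 6 of mm10 (86016171 to 86020996), is required for primordial follicles and for the zona pellucida genes. Its level was 741, 726 and 816 TPM in the 4F libraries and 320 and 326 TPM in the 8F libraries. The 2 groups did not overlap, and the log2 fold change was -1.23 (standard error, SE, 0.11, Benjamini-Hochberg adjusted p = 0.00435 in limma). Lhx8, on chromosome 3 (154306294 to 154330659), was at 444, 417 and 438 TPM in 4F-mini-oocytes and at 185 and 188 TPM in 8F-mini-oocytes. This was again a gap far wider than the spread within either group, with a log2 fold change of -1.21 (SE 0.09, Benjamini-Hochberg adjusted p = 0.00242 in limma).

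Nobox, on chromosome 6 (43303674 to 43309554), was at 1102, 1196 and 1254.5 TPM in 4F-mini-oocytes and at 1009 and 1052 TPM in 8F-mini-oocytes. Both 8F libraries lay just under the lowest 4F library, and the log2 fold change of -0.20, or 0.01 after quantile normalization, had a 95% interval from -0.45 to 0.05 (Benjamini-Hochberg adjusted p = 0.338 in limma). Tbpl2, on chromosome 2 (24071721 to 24096595), was at 212, 261 and 165 TPM against 121 and 124 TPM. The 4F libraries of Tbpl2 were spread over a wide range, all of them above both 8F libraries. Its log2 fold change was -0.77 with an interval from -1.22 to -0.32, and it missed the threshold (Benjamini-Hochberg adjusted p = 0.0583 in limma). It passed in 3 of 18 other settings, which were a filter of 5 TPM, array weights, and leaving out the 4F library 3, its lowest.

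The balance of the 4 shared factors differed between the lines. Their summed TPM was 2499, 2600 and 2673 in the 4F libraries at day 21 and 1636 and 1689 in the 8F libraries, and 1526 and 1443 in 4F-mini-oocytes at day 7. Nobox made up 44.1%, 46.0% and 46.9% of this sum in 4F-mini-oocytes at day 21, 45.9% in both day 7 libraries, and 61.7% and 62.3% in 8F-mini-oocytes. The 5 4F libraries shared 1 narrow range of the Nobox share across both days, and the 8F libraries lay above it. The share of Figla was 29.7%, 27.9% and 30.5% in 4F-mini-oocytes at day 21 against 19.6% and 19.3% in 8F-mini-oocytes. Lhx8 made up 16.0% to 17.8% of the sum in 4F-mini-oocytes at day 21 and 11.1% to 11.3% in 8F-mini-oocytes. The ratio of Nobox to Figla was between 1.39 and 1.65 in the 5 4F libraries and 3.15 and 3.23 in the 8F libraries. These shares and ratios are given as descriptions, with no test of their own.

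**Figure D3:**
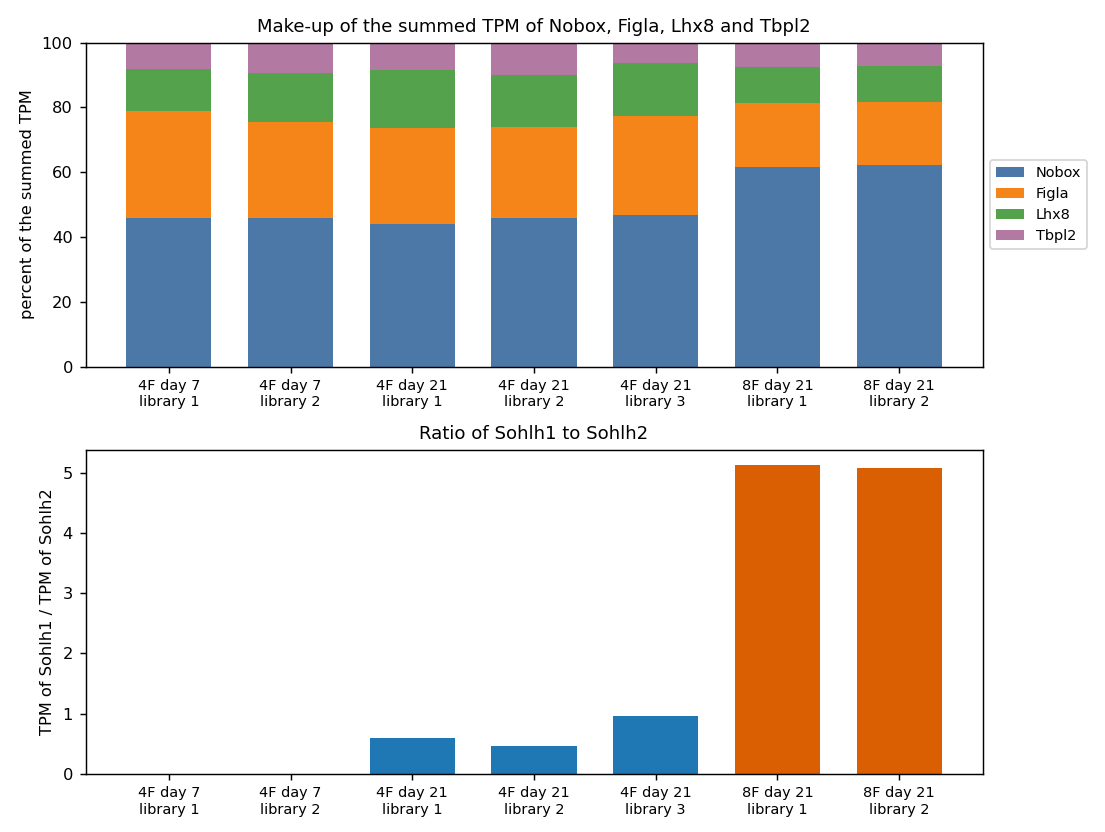
Upper panel, share of Nobox, Figla, Lhx8 and Tbpl2 in their summed TPM (percent) in each of the 7 libraries; lower panel, TPM of Sohlh1 divided by that of Sohlh2 in the same libraries. Nobox holds 44.1% to 46.9% of the sum in the 4F libraries and 61.7% and 62.3% in the 8F libraries, and the Sohlh1 to Sohlh2 ratio is above 5 in the 8F libraries and below 1 in all others.

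Of the 4 factors whose transgene only the 8F line carries, Sohlh1 was higher in 8F-mini-oocytes, and Stat3 and Sub1 overlapped between the lines. Sohlh1, on chromosome 2 (25842995 to 25847248), was at 60.9, 42.7 and 56.2 TPM in the 4F libraries, from 239 to 368 reads, while the 8F libraries gave 117 and 143 TPM, from 877 and 1045 reads. Both 8F libraries lay well above all 3 4F libraries. The log2 fold change was 1.28 (SE 0.21, Benjamini-Hochberg adjusted p = 0.0201 in limma), and the mean of 130.1 ± 18.9 TPM (SD, n = 2) was 2.44 times that of 4F-mini-oocytes. The call was lost without the 4F library 3 or without either 8F library, while the log2 fold change stayed at 1.13 or above in all 18 other settings.

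Dynll1, on chromosome 5 (115297110 to 115300999), was at 237, 228 and 185 TPM in 4F-mini-oocytes and at 323 and 317 TPM in 8F-mini-oocytes. The groups did not overlap, but the log2 fold change of 0.57 (interval 0.12 to 1.01) did not pass the test (Benjamini-Hochberg adjusted p = 0.13 in limma). It passed with array weights and by voom on recovered reads (0.72). A stretch of up to 140 bases of the Dynll1 transcript matched transcripts of 220 other genes at 95% identity or more, so reads from that stretch may be missing from its value.

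Stat3, on chromosome 11 (100885098 to 100939540), was at 180, 181 and 183 TPM in 4F-mini-oocytes, against 176 and 196 TPM in 8F-mini-oocytes. The 8F libraries lay on both sides of the 4F libraries, and the log2 fold change was 0.03 with an interval from -0.19 to 0.26 (Benjamini-Hochberg adjusted p = 0.898 in limma). Stat3 shares 72 exonic bases with Stat5a on the opposite strand, whose mean was 0.239 TPM in 4F- and 0.283 TPM in 8F-mini-oocytes. Sub1, on chromosome 15 (11981339 to 11996983), was at 617, 528 and 512 TPM against 616 and 526 TPM. Its ranges were nearly the same in both lines, and the log2 fold change was 0.05 with an interval from -0.26 to 0.35 (Benjamini-Hochberg adjusted p = 0.889 in limma). Differences within those intervals could not be resolved with these libraries.

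Sohlh2, the bHLH partner of Sohlh1, has no transgene in either line and was lower in 8F-mini-oocytes. It lies on chromosome 3 (55182028 to 55209957), and its level was 102, 92.6 and 58.2 TPM in the 4F libraries and 22.8 and 28.3 TPM in the 8F libraries. Both 8F libraries were below the lowest 4F library, with a log2 fold change of -1.65 (SE 0.25, Benjamini-Hochberg adjusted p = 0.0155 in limma). The call was lost without the 4F library 2 or without either 8F library. Sohlh1 was below Sohlh2 in each 4F library of day 21, though nearly equal in library 3, and the ranges of the pair overlapped there. In both 8F libraries Sohlh1 was above Sohlh2, and its value there can include transgene reads. The ratio of Sohlh1 to Sohlh2 was 0.600, 0.461 and 0.966 in 4F-mini-oocytes and 5.12 and 5.07 in 8F-mini-oocytes.

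Of the 9 genes, 4 passed FDR 0.05 between 8F- and 4F-mini-oocytes, 1 higher and 3 lower, beside 8.37% of all genes tested (3.95% higher and 4.41% lower). The groups did not overlap for 7 of the 9, beside 43.8% of all genes tested. The median log2 fold change of the 9 was -0.20, against 0.06 for all genes tested. Without either 8F library in turn, 2 of the 9 genes passed, Figla and Lhx8, and 306 or 357 genes were called in all instead of 1822. With voom on recovered reads, 62.7% of the genes called among all those tested were higher in 8F-mini-oocytes, against 47.3% here.

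**Figure D4:**
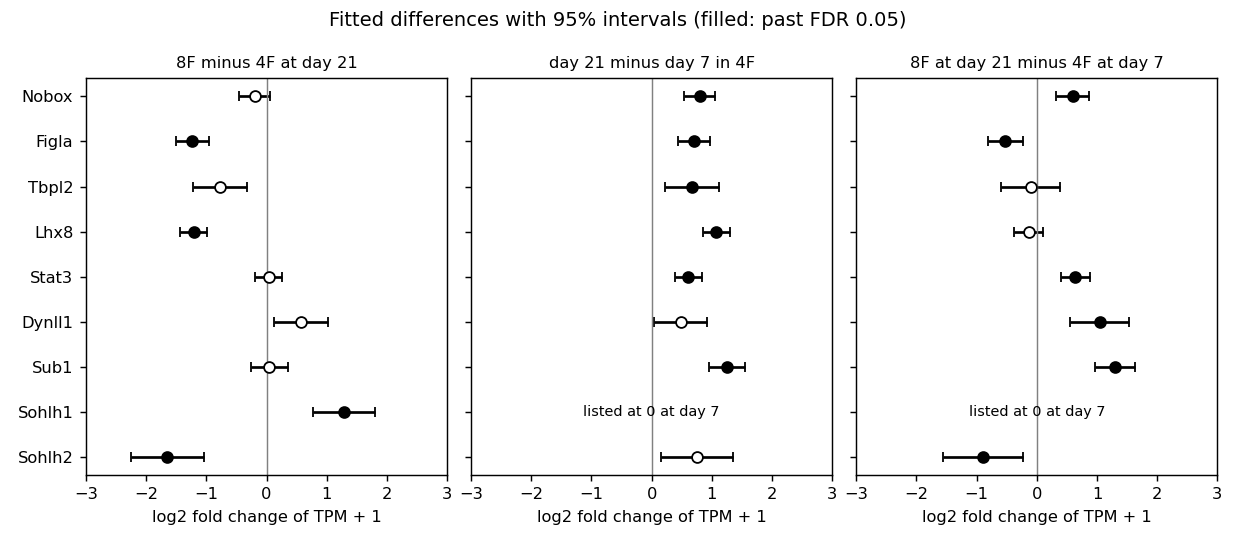
Fitted log2 fold change of TPM + 1 with its 95% interval for each gene in the 3 comparisons; filled points passed FDR 0.05. No point is drawn for Sohlh1 against day 7, where it is listed at 0. In 8F minus 4F, Figla, Lhx8 and Sohlh2 lie below 0 and Sohlh1 above, and in day 21 minus day 7 all points drawn lie above 0, of which Stat3 and Dynll1 fall below 0 after quantile normalization, and Dynll1 also with voom.

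The second comparison follows the factors in 4F-mini-oocytes from day 7 to day 21, over a period in which Shield1 was withdrawn from the fresh medium. The 4 transgenic factors were all higher at day 21. Nobox rose from 701 and 662 TPM to 1102, 1196 and 1254.5 TPM, a log2 fold change of 0.79 (SE 0.11, Benjamini-Hochberg adjusted p = 0.00154 in limma). Lhx8 rose from 195 and 215 TPM to between 417 and 444 TPM, a log2 fold change of 1.08 (SE 0.09, Benjamini-Hochberg adjusted p = 0.00029 in limma). Figla went from 504 and 429 TPM to between 726 and 816 TPM (log2 fold change 0.71, adjusted p = 0.00309 from limma), and Tbpl2 from 126 and 137 TPM to between 165 and 261 TPM (log2 fold change 0.67, adjusted p = 0.03 from limma). For all 4, every day 21 library was above both day 7 libraries. By voom on recovered reads the log2 fold change was smaller for Nobox (0.25) and Lhx8 (0.53), both still past the threshold. Tbpl2 passed in 6 of 18 other settings (not without either day 7 library, the 4F day 21 library 1 or either 8F library), and quantile normalization brought its log2 fold change to 0.03, while Figla passed in 17, and voom on recovered reads gave 0.18 for it.

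The other 5 genes have no transgene in the 4F line, so their values there come from the native genes. Sub1 rose from 221 and 241 TPM to 617, 528 and 512 TPM, a log2 fold change of 1.25 (SE 0.13, Benjamini-Hochberg adjusted p = 0.00056 in limma). Stat3 rose from 117 and 120 TPM to between 180 and 183 TPM, a log2 fold change of 0.61 (SE 0.09, Benjamini-Hochberg adjusted p = 0.00274 in limma), but it turned to -0.02 after quantile normalization and was not past the threshold after median-of-ratios rescaling or with voom. Dynll1, at 128 and 187 TPM at day 7 and between 185 and 237 TPM at day 21, overlapped between the days (log2 fold change 0.48, adjusted p = 0.0834 from limma), and its log2 fold change was -0.14 after quantile normalization. Without the day 7 library 2 it was 0.75 and passed.

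Both day 7 libraries list Sohlh1 at 0, and it reached 53.3 ± 9.48 TPM (SD, n = 3) at day 21 in cells with no Sohlh1 transgene. With 3 reads in each day 7 library as the floor, on average 0.519 TPM, this was at least 103-fold higher, and the difference passed the test (Benjamini-Hochberg adjusted p = 3.79e-05 in limma). Sohlh2 was already present at day 7, at 46.2 and 50.2 TPM, and was at 102, 92.6 and 58.2 TPM at day 21. All 3 day 21 libraries of Sohlh2 were above the day 7 libraries, with library 3 only slightly so, and its log2 fold change of 0.75 (interval 0.15 to 1.35) missed the threshold (Benjamini-Hochberg adjusted p = 0.0531 in limma). Without that library 3 it was 0.99 and passed. At day 7, of the 2 partners, Sohlh2 alone was detected at this depth.

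Of the 9 genes, 7 passed FDR 0.05 as higher at day 21 and none as lower, beside 25.3% of all genes tested as higher and 40.6% in either direction. At an unadjusted p under 0.05 in limma, 9 were higher and 0 lower, and no share of all genes was taken at that p. The groups did not overlap for 8 of the 9, beside 56.7% of all genes tested. The median log2 fold change of the 9 was 0.75, also with Sohlh1 at its bound, against 0.17 for all genes tested. After median-of-ratios rescaling the median of all genes tested was -0.06, and with voom on recovered reads -0.32, and 5 and 4 of the 9 genes passed. In the same 2 fits 8632 and 8919 genes were called in all, in either direction, against 8847 here. Of all genes called, 62.3% were higher at day 21 here, 48.6% after median-of-ratios rescaling and 37.4% with voom. Markers of other differentiated lineages, 8 genes, summed to between 1111 and 1587 TPM at day 7 and between 70.0 and 183 TPM in 4F-mini-oocytes at day 21. Most of this sum was Krt8 and Krt18 (means of 761 and 547 TPM at day 7), and Gata4 of the same list went the other way, from a mean of 2.32 to 40.5 TPM. Their part in the result was not tested. The 10 highest genes took 28.5% and 31.8% of the TPM at day 7 and 10.2% to 14% at day 21, and the part of this in the TPM of other genes was not tested.

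The day 21 8F libraries were also set against the day 7 4F libraries, which changes the line and the day together, since no 8F sample at day 7 was analysed here. In that comparison 7 of the 9 genes passed FDR 0.05, 5 higher and 2 lower, beside 37.2% of all genes tested. Of all genes called, 65.1% were higher in 8F-mini-oocytes at day 21, against 51.5% by median-of-ratios rescaling, 54.4% by quantile normalization and 47.5% by voom, and without either 8F library 3 of the 9 genes passed. This comparison shares its samples with the other 2. Figla was lower in 8F-mini-oocytes at day 21 than at day 7 in 4F-mini-oocytes (log2 fold change -0.52, Benjamini-Hochberg adjusted p = 0.0164 in limma), and so was Sohlh2 (log2 fold change -0.90, adjusted p = 0.043, same test). The call of Sohlh2 held in 11 of 18 other settings and was lost without either day 7 library, the 4F day 21 library 2 or either 8F library, among others. Lhx8 at 185 and 188 TPM and Tbpl2 at 121 and 124 TPM did not pass, with log2 fold changes of -0.14 (interval -0.38 to 0.10) and -0.10 (interval -0.60 to 0.39). Both depended on the scaling, since quantile normalization gave -0.67 for Lhx8 and -0.66 for Tbpl2 with both past the threshold, and Lhx8 was also called lower after median-of-ratios rescaling and with voom. Nobox (0.60), Stat3 (0.64), Dynll1 (1.05) and Sub1 (1.30) were higher on the log2 scale, with adjusted p of 0.00821, 0.00395, 0.00845 and 0.000924 from limma. Sub1 passed in all 18 other settings. Stat3 and Dynll1 lost their calls after median-of-ratios rescaling and after quantile normalization (0.08 and 0.51), and Nobox after median-of-ratios rescaling, with voom (0.21) and without the eBayes trend. Without either 8F library, Nobox, Figla and Dynll1 did not pass. Sohlh1 was at least 250.5-fold above the day 7 floor.

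Genes around these factors were grouped in lists by role, and in 8F minus 4F most of their members did not pass the test. Of 14 genes known to need Nobox, Figla or Sohlh1 in oocytes, 1 was higher and 3 were lower in 8F-mini-oocytes, beside 3.95% higher and 4.41% lower of all genes tested, with a median log2 fold change of -0.18 against 0.06 for all genes. Npm2, a histone chaperone gene, was the clearest, with 4217 ± 165 TPM (SD, n = 3) in 4F-mini-oocytes against 2086 ± 46.9 TPM (SD, n = 2) with the 8 factors (log2 fold change -1.01, SE 0.11, Benjamini-Hochberg adjusted p = 0.00676 in limma). The 8F line carries the Npm2-mCherry reporter and its part in this value was not tested. Nlrp5, a maternal-effect gene, and H1f8, the oocyte linker histone gene, had log2 fold changes of -0.84 and -0.54, and Bmp15, a growth factor gene of oocytes, one of 0.59, with adjusted p of 0.0488, 0.0491 and 0.046 from limma. These 3 calls lay close to the threshold, and passed in 7 (Nlrp5), 5 (H1f8) and 7 (Bmp15) of 18 other settings. The zona pellucida genes Zp1, Zp2 and Zp3 and the growth factor gene Gdf9 were in this list and did not pass.

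Among LIM cofactors, E proteins and Id proteins, 14 of 17 genes were expressed enough to be tested. The bHLH inhibitors Id1 and Id3 were higher in 8F-mini-oocytes and the E protein gene Tcf3 was lower, beside 3.95% higher and 4.41% lower of all genes tested. E proteins pair with tissue-specific bHLH factors, and Id proteins bind E proteins in dimers that cannot bind DNA. Id1 was between 54.6 and 107 TPM in the 4F libraries and between 519 and 664 TPM in the 8F libraries, a log2 fold change of 2.96 (SE 0.29, Benjamini-Hochberg adjusted p = 0.00508 in limma). The call of Id1 was lost without the 8F library 1, while its log2 fold change stayed at 2.74 or above in all 18 other settings. Id3 was between 17.9 and 49.8 TPM against 126 to 141 TPM (log2 fold change 2.05, adjusted p = 0.0387 from limma), and passed in 8 of 18 other settings. Tcf3 was at 166 ± 28.4 TPM (SD, n = 3) against 87.9 ± 6.62 TPM (SD, n = 2), a log2 fold change of -0.90 (adjusted p = 0.0289 from limma). This call held in 12 of 18 other settings, and not without the 4F library 2 or 3. Tcf12, Tcf4, Id2 and Id4 did not pass. The median of the list was 0.23. Tcf3 was also the 1 gene of 10 other oocyte and germ cell factors to pass, a share near the 8.37% of all genes called, in a list with a median of -0.12. Its members Foxo3, with a log2 fold change of 0.49 (adjusted p = 0.103 from limma), and Pou5f1, with -1.12 (adjusted p = 0.0557 from limma), did not pass. Pou5f1 is also 1 of 7 pluripotency markers, of which 5 were tested and 1 passed, beside 8.37% of all genes tested. This was Klf2, higher in 8F-mini-oocytes (log2 fold change 2.51, Benjamini-Hochberg adjusted p = 0.0282 in limma). Sox2, Zfp42 and Esrrb did not pass, and Nanog was at 0 in all 5 libraries of day 21.

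In the Stat3 pathway, 17 of 22 genes were tested and 1 passed, beside 8.37% of all genes tested. This was Socs1, a feedback inhibitor of Jak kinases, between 4.70 and 6.10 TPM in 4F- and between 13.3 and 15.2 TPM in 8F-mini-oocytes (log2 fold change 1.31, SE 0.29, Benjamini-Hochberg adjusted p = 0.0413 in limma). Socs1 passed in 11 of 18 other settings, and not with any single 4F library of day 21 left out. The related inhibitor Socs3 did not overlap between the lines, at 9.24 to 21.4 against 50.3 to 52.3 TPM, and missed the threshold (log2 fold change 1.60, adjusted p = 0.0798 from limma), but passed with array weights and by voom (1.80). The kinase genes Jak1, Jak2 and Tyk2 and the receptor genes Il6st and Lifr did not pass, and the median of the list was -0.02. The ligand genes Lif and Il6 were too low to be tested. Of the 11 tested genes of the dynein list, 4 passed as lower in 8F-mini-oocytes and none as higher, beside 4.41% lower and 3.95% higher of all genes tested, with a median of -0.16. At an unadjusted p under 0.05 in limma, 5 were lower and 0 higher, and no share of all genes was taken at that p. The 4 that passed were the Dynll1 paralog Dynll2 (log2 fold change -0.56), and the dynein subunit genes Dync1h1 (-0.70), Dync1li1 (-0.81) and Dynlrb1 (-0.80), with adjusted p of 0.0276, 0.0128, 0.0408 and 0.0217 from limma. Dync1li1 passed in 5 of 18 other settings, Dynll2 in 11, and Dync1h1 and Dynlrb1 in 14 each. None of the 12 core promoter factors, among them the Tbpl2 paralogs Tbp and Tbpl1, passed, with a median of -0.04, or -0.10 with Taf7l at the bound that 3 reads per library allow. In this list, 1 gene had an unadjusted p under 0.05 in limma, and 1 gene passed by voom on recovered reads and by limma with array weights. Without either 8F library in turn, at most 1 gene of each of the 6 lists passed between the lines.

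**Figure D5:**
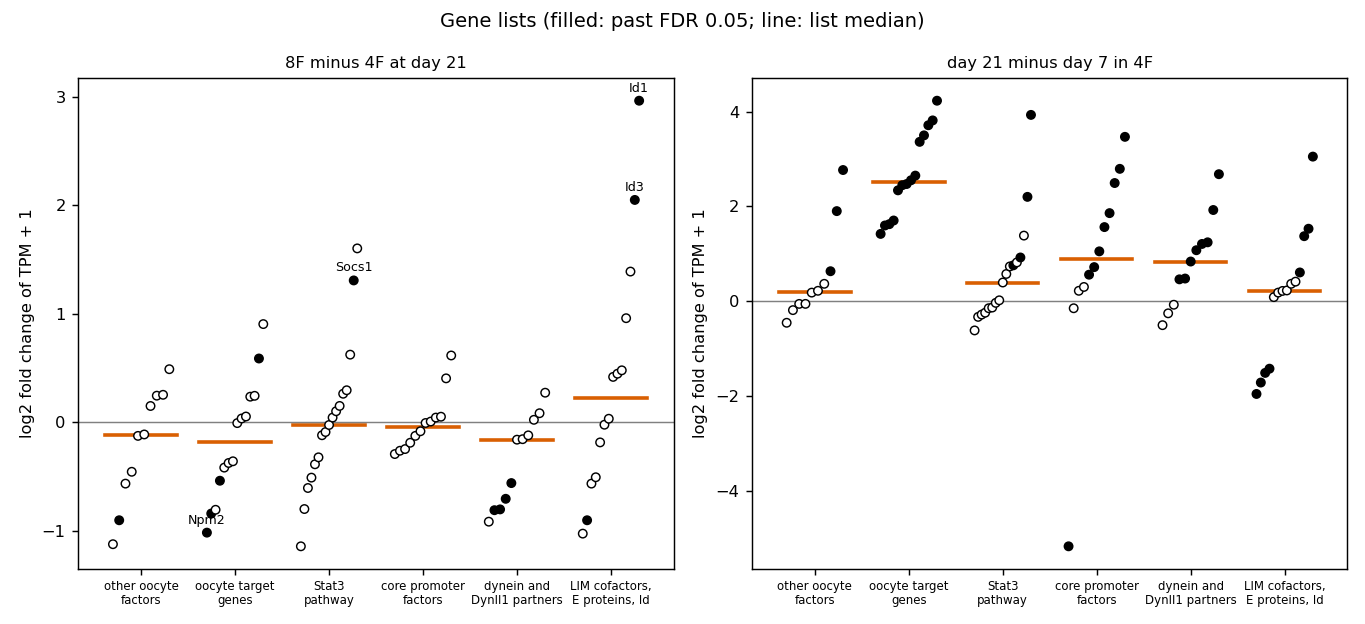
Log2 fold change of TPM + 1 of each tested gene of 6 lists, in 8F minus 4F at day 21 (left) and day 21 minus day 7 in 4F (right); filled points passed FDR 0.05 and the line is the list median. On the left most points are open and Id1 is the highest at 2.96, and on the right all 14 oocyte target genes are filled and above 0.

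Between the days in 4F-mini-oocytes, all 14 oocyte target genes rose, with a median log2 fold change of 2.51 against 0.17 for all genes and 0.75 for the 9 factors, and all 14 passed in each of 18 other settings. Gdf9, with a log2 fold change of 4.23, had 249 ± 75.6 TPM (SD, n = 2) early and 4613 ± 573 TPM (SD, n = 3) late. Of these 14 genes, 6 are also among the 8 oocyte markers. Of the 12 core promoter factors, 8 rose and 1 fell, beside 25.3% higher and 15.3% lower of all genes tested, with Taf7 among the 8 but at -0.03 after quantile normalization. Tbp, the paralog whose place Tbpl2 takes in oocytes, went up from 11.9 ± 0.385 (SD, n = 2) to 37.2 ± 2.91 TPM (SD, n = 3), a log2 fold change of 1.56 (Benjamini-Hochberg adjusted p = 0.000438 in limma). Tbp stayed below Tbpl2 on the TPM scale in every library, where the value of Tbpl2 can include transgene reads. Gtf2a1l, a TFIIA subunit gene of germ cells, rose from 8.24 ± 1.90 to 101 ± 16.9 TPM (log2 fold change 3.47, adjusted p = 9.56e-05 from limma). Taf7l, a germ cell paralog of the TFIID subunit Taf7, was at 29.1 and 42.3 TPM at day 7 and listed at 0 in all 3 day 21 libraries (adjusted p = 0.000145 from limma).

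Of the 14 tested LIM and bHLH partners, 4 rose and 4 fell between the days, beside the same 25.3% and 15.3%. Those that fell were Id1, Id2, Id4 and Tcf4, and Id3 did not pass. Id1 went from 203 ± 38.8 (SD, n = 2) to 77.3 ± 26.8 TPM (SD, n = 3), a log2 fold change of -1.43 (Benjamini-Hochberg adjusted p = 0.0084 in limma), and Id4 from 28.9 to 6.75 TPM. The level of Id1 in 8F-mini-oocytes at day 21 was above both 4F groups. The LIM cofactor gene Ldb1, whose protein bridges LIM homeodomain factors such as Lhx8, rose from 21.6 ± 2.58 to 65.6 ± 16.8 TPM, and Ssbp2, Ssbp3 and Lhx5 rose as well, Ssbp2 in 7 and Ssbp3 in 12 of 18 other settings. Leaving out a day 7 library ended the calls of Id2 and Tcf4 (library 1) and Id1 (library 2). In the Stat3 pathway, 4 of 17 genes rose (Jak2, Pim1, Stat4 and Stat6) and none fell, a share near the 25.3% of all genes called higher, with a median of 0.39. Pim1 passed in 6 of 18 other settings, and Jak2 lost its call after quantile normalization (0.14) and with voom. Stat4 rose from 1.18 to 29.5 TPM and Stat6 from 6.83 to 35.1 TPM, both still below Stat3. In the dynein list, 8 of 11 genes rose and none fell, beside 25.3% higher and 15.3% lower of all genes, with a median of 0.84. At an unadjusted p under 0.05 in limma, 8 were higher and 1 lower, and no share of all genes was taken at that p. Trp53bp1 passed in 4 of 18 other settings, and Dync1i2 turned to -0.14 after quantile normalization and Dynll2 to -0.09 with voom. Of the 10 other oocyte and germ cell factors, Hsf1, Sall4 and Pou5f1 rose and none fell, a share near the 25.3% of all genes called higher, with a median of 0.20. Hsf1 passed in 5 of 18 other settings and was at 0.12 with voom.

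Genes whose level followed each factor most closely were listed by Pearson's r of log2(TPM + 1) over the 7 libraries, among 8507 protein-coding genes that averaged 10 TPM or more. The 7 libraries form 3 groups, so r mostly repeats the group means and is given as a description. For Nobox these were Ankrd27, Rnf40 and Rhot1 (r = 0.998, 0.997 and 0.995), and for Stat3 Phax, Nav2 and Ttyh3 (all 0.997 or above). Figla was followed by Psmd1, Kif1b and Ccdc171 and Lhx8 by Akap12, Ubxn1 and R3hdm2, and each of these 6 genes had, like them, its highest mean in 4F-mini-oocytes at day 21 and its lowest in 8F-mini-oocytes. Akap12 was at 1001 TPM at day 7, 2036 TPM in 4F- and 977 TPM in 8F-mini-oocytes at day 21. The closest genes to Tbpl2 were Scaf11, Cbr1 and Skap2, and those to Sohlh2 were Hnrnph3, Eif3a and Ebag9, with the same order of the day 21 means. Sub1 was followed by Nlrp9b, Nup153 and Nsmce3, and Dynll1 by Lrrc57, Tenm1 and H2bc4. Sohlh1 was followed by Orai1, Epc1 and Shisa8 (r between 0.998 and 0.999), of which Orai1 was also listed at 0 at day 7.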

How the data were processed

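The authors made RNA-seq libraries with the SMART-seq Stranded Kit, clipped 3 bases from read 2 with Trim Galore, used Hisat2 to align to mm10 and bedtools to drop rRNA reads, and counted the uniquely mapped reads over GENCODE exons by featureCounts (a read on several genes is split, with no strand option stated) and deposited TPM. Unique mapping loses reads of repeated stretches. Libraries were sequenced on 2 instruments with different read lengths, and which library went on which is not given in the sources used here. The authors tested counts, so limma replaces their test here.

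Genes that reached 1 TPM in 2 or more of the 7 libraries were tested by limma 3.58.1 (R 4.3.3; lmFit and eBayes with trend) on log2(TPM + 1), which understates changes of low genes, with 3 groups in 1 fit, two-sided, and Benjamini-Hochberg adjustment over 21780 genes at FDR 0.05. The fit was tested on simulated data in which all groups had the same spread, so that test does not cover unequal spread between groups. Reads were recovered from TPM steps with exon lengths of GENCODE vM21 (54312 of 55364 gene IDs, 98.1%, matched with version, and 55104 without), and between 77.7% and 83.8% of low values came out whole within 0.02 reads. Between 99% and 99.7% were multiples of a sixth of a read. All replicate pairs differed beyond sampling noise (chi-square per degree of freedom between 9.76 and 35.3). Gene coordinates and coding shares are from GENCODE vM21 on mm10, while the authors name a later GENCODE release for their counts. Promoters are from RefSeq (GRCm38.p6).

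The genes described, the lists, the likeness rule (the 3 genes with the highest Pearson r) and the settings were chosen with earlier results of these data known. The alternatives were other pseudocounts, filters, scalings and spread models, 2 groups only, a replicate block, and each library left out. No protein sequence was used here.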

Additional observations from a re-analysis of the deposited data

How the results depend on the processing

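Each result was recomputed in 18 other settings, and the list counts and list genes were added to these after the data had been seen. Between 8F- and 4F-mini-oocytes, Lhx8 passed in all 18, Figla in 17, Sohlh2 in 15 and Sohlh1 in 14, each with the same direction throughout. The number of the 9 genes past the threshold ranged from 2 to 4 with single libraries left out (lowest without either 8F library), from 6 to 8 between the days, and from 3 to 7 between 8F-mini-oocytes at day 21 and day 7, while the genes called among all tested ranged from 306 to 2221, 7040 to 8320 and 4089 to 8281. All genes called between the lines were 994 without the eBayes trend and 3572 with array weights. Between the days 4 of the 9 genes passed by voom, and between 8F-mini-oocytes and day 7, 4 passed without the trend. In these 2 fits 8919 and 7626 genes were called in all. Signs turned for differences near 0: Nobox between the lines was at 0.0117 after quantile normalization, and with single libraries left out Stat3 ran from -0.0472 (8F library 2) to 0.113 (8F library 1), and Sub1 from -0.0660 (8F library 1) to 0.161 (8F library 2). Between the days, quantile normalization gave -0.0159 for Stat3, -0.14 for Dynll1, -0.0272 for Taf7 and -0.14 for Dync1i2, and voom gave -0.0819 for Dynll1, -0.0875 for Dynll2 and -0.0581 for Dync1i2. The cause of these changes was not tested.

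Equal replicate numbers did not mark libraries that deviated together (r between -0.0369 and 0.0111). In a group of 2 libraries the deviations mirror each other, so few of these values are independent. Whether equal numbers share a culture or a batch cannot be told from them. With a replicate block, 2 of the 9 genes (Lhx8 and Sohlh2) and 164 genes in all passed between the lines, and Sub1 was at -0.00476. The block leaves the 4F library 3 without a partner, so its estimates equal those without that library. In that fit 1 gene passed in the LIM and bHLH list and 0 in the oocyte factor, target, Stat3 and dynein lists, and between the days 5 passed in the LIM and bHLH list, with 7241 genes called in all.

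Between the lines, the target list counted 4 genes past the threshold, but 1 with a pseudocount of 0.1, without a filter, after median-of-ratios rescaling or without the trend, 2 with a pseudocount of 5, 7 with array weights and 9 by voom. The oocyte factors counted 2 with a filter of 5 TPM, 0 without the trend, 5 with array weights and 4 by voom. The Stat3 pathway counted 0 after quantile normalization, 4 with array weights, 3 by voom and 2 with only the 2 groups compared. The core promoter factors counted 1 with array weights, by voom or with 2 groups, the dynein list 0 without the trend, and the LIM and bHLH list 1 without the trend, 6 with array weights and 5 by voom. Among all genes tested, 1822 were called here, 3572 with array weights, 2264 by voom and 2231 with 2 groups. Without the trend 994 were called in all, without a filter 1547 and with a filter of 5 TPM 1675. Pseudocounts of 0.1 and 5 gave 1674 and 1753, median-of-ratios rescaling 1679 and quantile normalization 1451. With single libraries left out the counts ran from 0 to 1 (oocyte factors), 0 to 5 (targets), 0 to 2 (Stat3 pathway), 0 to 1 (core promoter factors), 0 to 4 (dynein) and 0 to 2 (LIM and bHLH). Between the days, the oocyte factors counted 5 after quantile normalization and by voom, the dynein list 5 without the trend or with array weights, and the Stat3 pathway 7 by voom, and with single libraries left out the counts ran from 2 to 3, 14 to 14, 3 to 4, 8 to 9, 6 to 7 and 5 to 8 in the same order. Between the days all genes called were 8847 here, 8368 after quantile normalization, 8919 by voom, 8457 without the trend and 7062 with array weights. With 2 or 3 libraries per group, small differences cannot be resolved.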
